A study of Homo sapiens with 6 samples.

Results

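The 10 desmosome genes DSP, JUP, PERP, PKP1, PKP2, PKP3, DSC2, DSC3, DSG2 and DSG3 were followed in CAL27 cells, a long-established line from an oral tumour, adenosquamous by its label. The members were set by a list of symbols, matched through their Ensembl gene IDs, and were 10 of the 30178 genes in the deposited expression table. All 10 had a mean of at least 1 FPKM (reads scaled to the length of the gene and the depth of the library) over the 6 libraries and were among the 11481 genes tested. The groups were a Q311E line with constitutive expression of MB21D2 carrying a glutamine-to-glutamate change, a wild-type MB21D2 line, and an empty-vector line, with 2 libraries (A and B) in each. MB21D2 belongs to the Mab-21 family that also holds the DNA sensor cGAS. All 3 lines were stable, were described as carrying GFP-fused proteins, and grew in DMEM with serum, antibiotics and the selection drug G418. The labels do not give the promoter behind the transgene, do not say whether a line is 1 clone or a pool, and leave unsaid whether A and B came from separate cultures. Each p-value therefore reflects only how far these libraries differ, and that spread may be technical.

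Library totals recovered from the steps of the FPKM values lay between 20645410 and 24147306 reads. MB21D2 itself had 32.8 and 21.2 FPKM in the Q311E libraries and 104 and 106 FPKM in the wild-type libraries, against 8.31 and 7.15 FPKM in the vector libraries. The 2 MB21D2 lines thus differed in MB21D2 level as well as in its sequence. All 13 squamous epithelial markers were matched, and their summed level was 1286 and 1346 FPKM in the Q311E libraries and 1098 and 1117 FPKM in the wild-type libraries, against 2172 and 2084 FPKM in the vector libraries. KRT14, a basal keratin among them, was near 0 in both MB21D2 lines and had 762 and 697 FPKM in the vector libraries. This 1 gene thus made up a large part of the gap between the sums. The 13 markers include the members DSP, PKP1, DSG3 and DSC3, so they are not independent of the set. Of the markers of fibroblasts 6 of 8, of endothelium 3 of 4, of leukocytes 2 of 3 and of melanocytes 3 of 3 matched genes stayed below 1 FPKM in every library, as did all 5 of cardiac muscle, another tissue rich in desmosomes. The exceptions were the collagens COL1A1 and COL1A2, the endothelial cadherin CDH5 and the monocyte receptor CD14. CDH5 lay between 15.4 and 35.2 FPKM in the 6 libraries, and CD14 had 4.93 and 18.8 FPKM in Q311E A and B. The part of that difference between the Q311E libraries in the results below was not tested.

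Desmosomes are spot-like junctions that hold neighbouring epithelial cells together and tie their keratin filaments into one network. Desmogleins (DSG) and desmocollins (DSC) are cadherins that cross the membrane and bind across the gap between cells. Inside the cell their tails hold plakoglobin (JUP) and the plakophilins (PKP), and these hold desmoplakin (DSP), the plakin that grips keratin. DSG2 and DSC2 are the cadherins expressed more widely across tissues, while DSG3, DSC3 and PKP1 mark stratified epithelium. PERP is a small membrane protein that desmosomes of stratified epithelium need and that p63 and p53 regulate.

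The 250 bases before the RefSeq start site (build GRCh38.p14) are shown for the gene that was higher in both MB21D2 lines than in the vector line, DSP, and for the 3 with lower FPKM in both, DSG3, DSC3 and PKP1. RefSeq entries matched 8 of the 10 genes, all but PKP2 and PKP3. Capitals mark every match, on either strand, to the AP-1 motif spelled TGANTCA, the motif of grainyhead-like factors spelled AACCNGTT, the E-box spelled CACCTG, the GC box spelled GGGCGG or the TATA box spelled TATAAA, with overlapping matches joined.
DSP, chr6:7541421-7541670, plus strand: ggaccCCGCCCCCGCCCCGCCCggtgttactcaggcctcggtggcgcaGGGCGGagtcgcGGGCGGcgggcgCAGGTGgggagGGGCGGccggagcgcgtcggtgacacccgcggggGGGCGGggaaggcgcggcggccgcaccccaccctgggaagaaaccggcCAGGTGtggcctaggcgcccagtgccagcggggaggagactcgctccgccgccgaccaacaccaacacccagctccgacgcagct
DSG3, chr18:31447491-31447740, plus strand: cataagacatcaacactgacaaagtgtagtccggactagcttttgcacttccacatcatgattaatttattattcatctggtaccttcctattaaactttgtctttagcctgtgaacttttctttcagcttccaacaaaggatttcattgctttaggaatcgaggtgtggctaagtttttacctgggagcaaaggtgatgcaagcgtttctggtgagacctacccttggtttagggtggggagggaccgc
DSC3, chr18:31042743-31042992, minus strand: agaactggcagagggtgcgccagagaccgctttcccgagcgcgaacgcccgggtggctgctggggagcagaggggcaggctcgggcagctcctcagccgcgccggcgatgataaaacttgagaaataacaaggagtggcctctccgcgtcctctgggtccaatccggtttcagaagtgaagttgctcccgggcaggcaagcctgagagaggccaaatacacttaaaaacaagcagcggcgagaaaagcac
PKP1, chr1:201283256-201283505, plus strand: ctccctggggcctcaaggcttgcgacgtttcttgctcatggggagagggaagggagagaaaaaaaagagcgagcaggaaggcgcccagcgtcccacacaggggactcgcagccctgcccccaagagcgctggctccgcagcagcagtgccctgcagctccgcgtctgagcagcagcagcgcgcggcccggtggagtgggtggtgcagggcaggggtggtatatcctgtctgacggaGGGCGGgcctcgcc
The DSP window held 7 GC boxes and 2 E-boxes at 78.0% G and C, and the PKP1 window 1 GC box at 67.6%. The windows of DSC3 (60.4% G and C) and DSG3 (42.8%) held none of the 5 motifs. Over 35116 RefSeq windows of the same length, 42.6% held the GC box, 17.5% the E-box, 10.7% the TATA box, 6.57% the AP-1 motif and 1.49% the grainyhead motif. These matches describe letters and not binding.

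The summed FPKM of the 10 genes was similar in the 3 lines, at 283 and 307 in the Q311E libraries and 279 and 276 in the wild-type libraries, against 289 and 289 in the vector libraries. JUP, PERP, PKP3, DSP and DSG2 were the 5 most abundant members in every line, at or above 81.1% of the tested genes by level. PKP1, DSC2, DSC3 and DSG3 were the 4 least abundant in every line. The makeup of the set differed, as the plot of FPKM by library shows. Since these are bulk samples, fewer cells of a kind and less RNA per cell cannot be told apart.

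**Figure D1:**
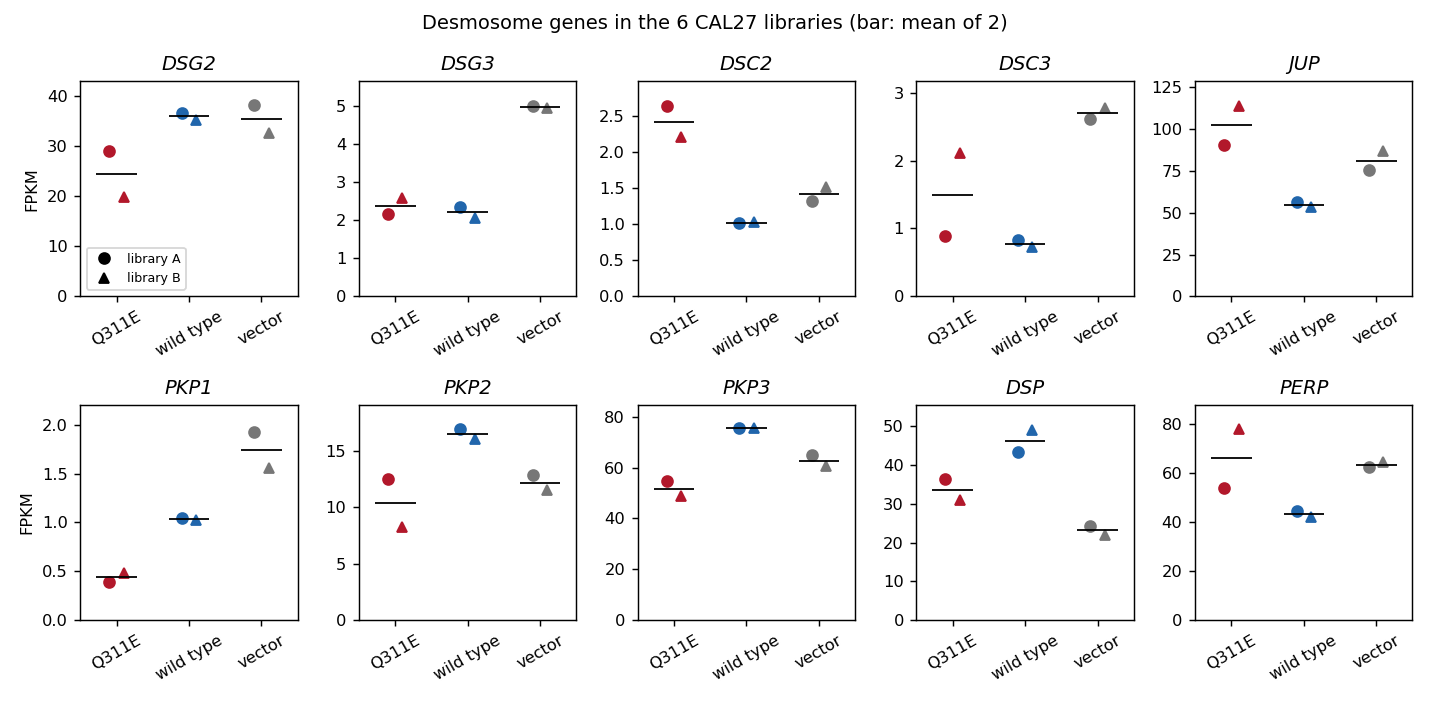
FPKM (y axes, each from 0) of the 10 desmosome genes in the Q311E, wild-type and vector lines; circles are library A, triangles library B and bars the mean of 2. DSG3 lies near 5 FPKM in the vector line alone, DSP is highest in the wild-type line, and the Q311E pair is wide for DSC3 (0.885 and 2.11 FPKM).

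Among the desmogleins, DSG3 was lower in both MB21D2 lines than in the vector line. This cadherin is the target of autoantibodies in pemphigus vulgaris. DSG3 (ENSG00000134757, GRCh38 chromosome 18, 31447795 to 31478702) had 2.16 and 2.58 FPKM in the Q311E libraries and 2.34 and 2.07 FPKM in the wild-type libraries, against 4.99 and 4.94 FPKM in the vector libraries. The Q311E and wild-type values overlapped, and both pairs stood apart from the vector pair. Fold changes were taken as log2(FPKM + 1), where the added 1 shrinks the changes of weakly expressed genes. That of DSG3 was -0.83 ± 0.11 (SE) for Q311E over vector (limma adjusted p = 0.0111) and -0.90 ± 0.11 for wild type over vector (limma adjusted p = 0.0123). For Q311E over wild type it was 0.07 ± 0.11 (adjusted p = 0.638), with the opposite sign under median scaling (-0.01) and quantile normalization (-0.14).

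DSG2, the broadly expressed desmoglein, was by level the main cadherin of all 3 lines. DSG2 (ENSG00000046604, chromosome 18, 31498043 to 31549008) had 28.9 and 19.9 FPKM in the Q311E libraries and 36.6 and 35.2 FPKM in the wild-type libraries, against 38.1 and 32.6 FPKM in the vector libraries. The Q311E pair was below all other libraries, and the wild-type pair lay within the range of the vector pair. No comparison passed the test in the fit as described: Q311E over wild type was -0.56 ± 0.18 (adjusted p = 0.0718), Q311E over vector -0.53 ± 0.18 (0.102) and wild type over vector 0.03 ± 0.18 (0.934). For DSG2, Q311E over wild type passed with median scaling (limma adjusted p = 0.0345) and recovered reads (0.0464). It also passed with the library letter as a block (0.0383) and the length trend removed (0.0469). It did not pass with TPM scaling (0.109), quantile normalization (0.065), sample weights (0.0773) or no filter on low values (0.169). DSG2-AS1, an antisense gene over DSG2, had at most 4 reads in a library, against 2605 or more for DSG2. No ID of the deposited table was matched to DSG1 or DSG4, so they were not analysed here.

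The desmocollins DSC2 and DSC3 had different orders of lines. DSC2, the desmocollin found in all desmosome-bearing tissues, was highest in the Q311E line. DSC2 (ENSG00000134755, chromosome 18, 31058840 to 31102522) had 2.63 and 2.21 FPKM in the Q311E libraries and 1.02 and 1.03 FPKM in the wild-type libraries, against 1.32 and 1.52 FPKM in the vector libraries. All 3 pairs stood apart, with Q311E highest and wild type lowest. DSC2 rose in Q311E over wild type (0.75 ± 0.11, adjusted p = 0.0126) and over vector (0.50 ± 0.11, adjusted p = 0.0397), and wild type over vector was -0.26 ± 0.11 (adjusted p = 0.189). The call over vector was lost with no filter (limma adjusted p = 0.105), TPM scaling (0.0618), quantile normalization (0.0663) and sample weights (0.142). DSCAS, antisense to DSC2, had 1 read in Q311E B and 0 in the other 5 libraries.

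DSC3, the desmocollin of basal layers, was highest in the vector line. DSC3 (ENSG00000134762, chromosome 18, 30990008 to 31042815) had 0.885 and 2.11 FPKM in the Q311E libraries and 0.826 and 0.725 FPKM in the wild-type libraries, against 2.61 and 2.78 FPKM in the vector libraries. These values rest on 145 and 352 reads in the Q311E line and 145 and 119 in the wild-type line, against 486 and 442 in the vector line. The Q311E libraries differed from each other more than the wild-type or the vector libraries did: Q311E A lay just above the wild-type pair and Q311E B nearer the vector pair. DSC3 fell in wild type over vector (-1.06 ± 0.24, adjusted p = 0.048). That call was lost with median scaling (limma adjusted p = 0.056), quantile normalization (0.0729), recovered reads (0.0502), the length trend removed (0.0621) and no filter on low values (0.148). Q311E over vector was -0.61 ± 0.24 (adjusted p = 0.138), and without Q311E B it passed the test (adjusted p = 0.00227). Q311E over wild type was 0.45 ± 0.24 (adjusted p = 0.205), and without Q311E A it passed (adjusted p = 0.00159). With 1 Q311E library left, the spread comes from the other lines alone, and the lone library is assumed to vary like them.

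The shares of DSG3 and DSC3 in their own families were taken from FPKM, which is per gene length. DSG3 made up 6.94% and 11.5% of the desmoglein FPKM (DSG2 plus DSG3) in the Q311E libraries and 6.02% and 5.55% in the wild-type libraries, against 11.6% and 13.2% in the vector libraries. DSC3 made up 25.1% and 48.9% of the desmocollin FPKM (DSC2 plus DSC3) in the Q311E libraries and 44.8% and 41.3% in the wild-type libraries, against 66.4% and 64.7% in the vector libraries. Each of the 4 libraries of the MB21D2 lines thus had a lower share of DSG3 and of DSC3 than either vector library, by a narrow margin for DSG3 in Q311E B. As a share of all 4 cadherins, however, DSG3 and DSC3 together made up 8.79% and 17.5% in the Q311E libraries and 7.77% and 7.16% in the wild-type libraries, against 16.2% and 18.5% in the vector libraries, so that Q311E B lay within the vector pair. These shares were not tested.

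**Figure D2:**
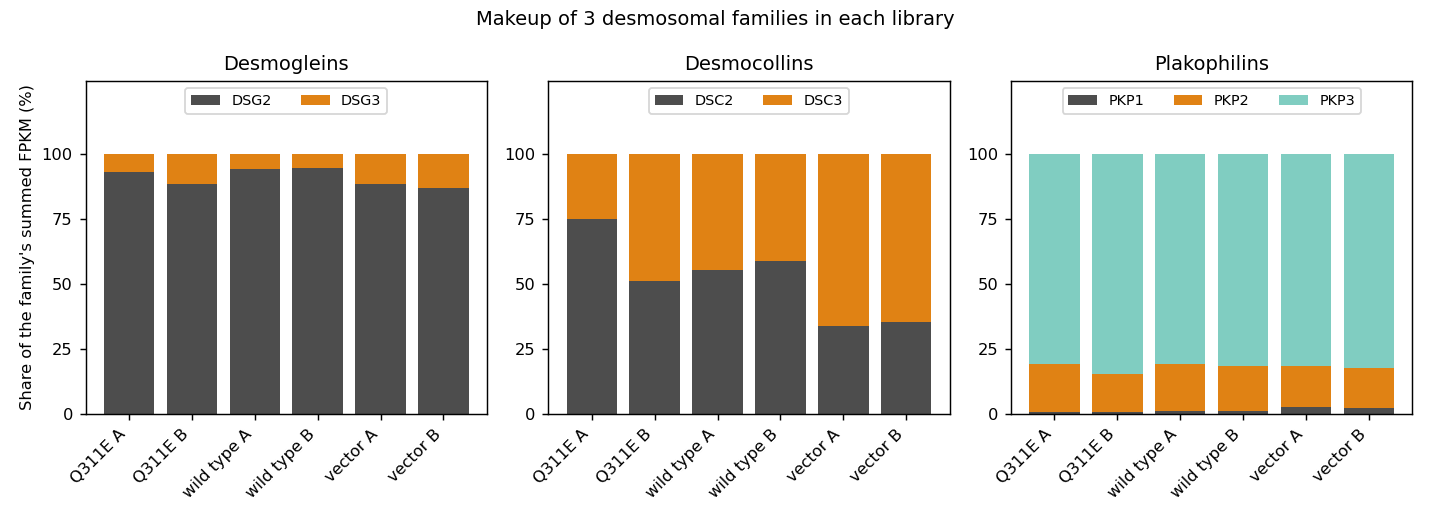
Share (%) of each gene in its family's summed FPKM, 1 bar per library, for desmogleins, desmocollins and plakophilins. DSC3 holds 66.4% and 64.7% of the desmocollin bars in the vector libraries, and PKP3 holds between 80.8% and 84.8% of every plakophilin bar.

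JUP, or plakoglobin, which also serves adherens junctions, was highest in the Q311E line. JUP (ENSG00000173801, chromosome 17, 41754604 to 41786931) had 90.4 and 114 FPKM in the Q311E libraries and 56.4 and 53.2 FPKM in the wild-type libraries, against 75.3 and 86.8 FPKM in the vector libraries. All 3 pairs stood apart. Its log2 fold change was 0.88 ± 0.14 for Q311E over wild type (adjusted p = 0.0138). DSC2 had the larger change of the pair with a pseudocount of 0.5 or 0.1, with TPM scaling and on recovered reads, so no order of size is given. The change of JUP was 0.32 ± 0.14 for Q311E over vector (adjusted p = 0.159) and -0.55 ± 0.14 for wild type over vector (adjusted p = 0.0595).

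PKP1, which strengthens desmosomes in stratified epithelium, had the lowest level of the 10 in the Q311E line. PKP1 (ENSG00000081277, chromosome 1, 201283452 to 201332993) had 0.393 and 0.484 FPKM in the Q311E libraries and 1.04 and 1.02 FPKM in the wild-type libraries, against 1.93 and 1.56 FPKM in the vector libraries. Behind these stood 52 and 65 reads in the Q311E line and 148 and 135 in the wild-type line, against 289 and 200 in the vector line. The pairs did not overlap, and the order was vector, wild type, Q311E. As a ratio of mean FPKM the Q311E line was at 0.425 of the wild-type line and at 0.252 of the vector line. PKP1 fell in Q311E over wild type (-0.50 ± 0.12, adjusted p = 0.0352) and over vector (-0.93 ± 0.12, adjusted p = 0.0112), and wild type over vector was -0.43 ± 0.12 (adjusted p = 0.0772). PKP1 met the filter of 1 FPKM through its levels outside the Q311E line (means of 0.439 FPKM in the Q311E line and 1.03 FPKM in the wild-type line, against 1.74 FPKM in the vector line). The call in Q311E over wild type was lost with no filter (limma adjusted p = 0.103), with sample weights (0.125) and with only these lines in the fit (0.0778).

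PKP3, the plakophilin found in most epithelia, was the main plakophilin of CAL27. PKP3 (ENSG00000184363, chromosome 11, 392614 to 404908) had 54.8 and 48.8 FPKM in the Q311E libraries and 75.7 and 75.5 FPKM in the wild-type libraries, against 65.1 and 60.5 FPKM in the vector libraries. All 3 pairs stood apart, with wild type highest. PKP3 fell in Q311E over wild type (-0.54 ± 0.09, adjusted p = 0.0154). Q311E over vector was -0.28 ± 0.09 (adjusted p = 0.0913) and wild type over vector 0.27 ± 0.09 (adjusted p = 0.114).

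PKP2, the plakophilin of heart and simple epithelium, had the same order of lines. PKP2 (ENSG00000057294, chromosome 12, 32790745 to 32896840) had 12.5 and 8.27 FPKM in the Q311E libraries and 16.9 and 16.0 FPKM in the wild-type libraries, against 12.8 and 11.5 FPKM in the vector libraries. The wild-type pair was above all others, and the Q311E and vector pairs overlapped. Q311E over wild type was -0.64 ± 0.18 (adjusted p = 0.0518), just outside the threshold, Q311E over vector -0.23 ± 0.18 (0.405) and wild type over vector 0.41 ± 0.18 (0.191). For PKP2, Q311E over wild type passed with median scaling (limma adjusted p = 0.0266), quantile normalization (0.0421), recovered reads (0.0329) and sample weights (0.0477). It also passed with the library letter as a block (0.0323) and the length trend removed (0.032). It did not pass with TPM scaling (0.0804), no filter on low values (0.131) or only these lines in the fit (0.109). Other annotated genes lie within PKP2, and whether the counting used strand is not given. PKP4, a further plakophilin relative outside the 10, lay between 13.1 and 14.8 FPKM in all 6 libraries and was called in no comparison.

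DSP, the plakin that anchors keratin filaments, was the only member called in all 3 comparisons in the fit as described. DSP (ENSG00000096696, chromosome 6, 7541575 to 7586717) had 36.3 and 30.9 FPKM in the Q311E libraries and 43.5 and 49.2 FPKM in the wild-type libraries, against 24.3 and 22.0 FPKM in the vector libraries. The pairs stood apart, with wild type highest and vector lowest. DSP fell in Q311E over wild type (-0.45 ± 0.12, adjusted p = 0.0406). It rose in Q311E over vector (0.52 ± 0.12, adjusted p = 0.038) and in wild type over vector (0.97 ± 0.12, adjusted p = 0.0128). The calls of Q311E over wild type and over vector were lost with no filter (limma adjusted p = 0.0962 and 0.0905), TPM scaling (0.0781 and 0.0792) and sample weights (0.122 and 0.141). JUP and DSP bind each other in the plaque, and the ratio of JUP to DSP FPKM was 2.49 and 3.69 in the Q311E libraries and 1.30 and 1.08 in the wild-type libraries, against 3.10 and 3.95 in the vector libraries. The wild-type pair was lowest, and the Q311E and vector pairs overlapped.

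PERP, the tetraspan membrane protein, was called in no comparison in the fit as described. PERP (ENSG00000112378, chromosome 6, 138088505 to 138107511) had 53.8 and 78.0 FPKM in the Q311E libraries and 44.3 and 42.0 FPKM in the wild-type libraries, against 62.3 and 64.5 FPKM in the vector libraries. The wild-type pair was below all others, and the vector pair lay inside the Q311E pair. Q311E over wild type was 0.58 ± 0.18 (adjusted p = 0.0612), Q311E over vector 0.03 ± 0.18 (0.916) and wild type over vector -0.54 ± 0.18 (0.103). For PERP, Q311E over wild type passed with TPM scaling (limma adjusted p = 0.0495) and sample weights (0.047). It did not pass with median scaling (0.114), quantile normalization (0.0591) or recovered reads (0.0713). The direction of Q311E over vector depended on the Q311E library kept, at -0.233 without Q311E B and 0.295 without Q311E A.

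The comparison of Q311E with wild type, which the series' design text names, asks how the substituted form differs from the normal one. Of the 10 members 2 were called higher, JUP and DSC2, and 3 lower, DSP, PKP1 and PKP3. Among all tested genes 27.5% were called, 17.5% higher and 10.1% lower. In 9 of the 10 members the groups did not overlap, and the same held for 70.1% of all tested genes. The median log2 fold change of the members was -0.19, against 0.05 over all tested genes, and their median size without sign was 0.55, against 0.28. Quantile normalization moved the median of all genes to -0.07. The split of members was 2 higher and 5 lower with median scaling and on recovered reads, and 3 higher and 2 lower with TPM scaling. The split of all calls was 2004 higher and 1158 lower as deposited, but 1487 and 2226 with median scaling.

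The calls rest on a spread shared by the 3 lines, to which the Q311E pair contributes most: the SD of the log2 difference between A and B over the 10 members was 0.424 for Q311E and 0.0834 for wild type, against 0.143 for the vector. In Q311E over wild type the 5 calls became 0 when either wild-type library was left out (adjusted p from 0.109 to 0.235, with 5 unadjusted p under 0.05 each time). They became 2, JUP and DSC2, without vector A or vector B. They became 9 without Q311E A and 7 without Q311E B.

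Q311E was also set against vector, which addresses the line with the substituted form as such. DSP and DSC2 were higher and PKP1 and DSG3 lower in the Q311E line, 4 of 10 members, against 18% of all tested genes called (8.67% higher and 9.28% lower). The groups did not overlap for 8 members, against 60.1% of all genes. The median of the members was -0.26, against 0.00 over all tested genes. Without any 1 of the wild-type or vector libraries 0 of the 4 calls were left (adjusted p from 0.0541 to 0.229, with 4 unadjusted p under 0.05 each time), while 9 were called without Q311E A and 6 without Q311E B. With only Q311E and vector in the fit 0 members were called, with 4 at an unadjusted p under 0.05.

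Wild type against vector addresses the line with the normal form, and it uses the same vector libraries as the preceding comparison. DSP was higher and DSG3 and DSC3 lower in the wild-type line, 3 of 10 members, against 12.3% of all tested genes called (3.54% higher and 8.76% lower). The split of all calls was 406 higher and 1006 lower as deposited, but 625 and 683 with median scaling and 565 and 741 on recovered reads. The groups did not overlap for 9 members, against 77% of all genes, and the median was -0.34, against -0.05 over all tested genes. Without any 1 of the wild-type or vector libraries 0 calls were left (adjusted p from 0.0929 to 0.275, with 3 or 4 unadjusted p under 0.05). Without Q311E A, or without Q311E B, 8 members were called, 3 higher and 5 lower, and likewise with only wild type and vector in the fit.

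**Figure D3:**
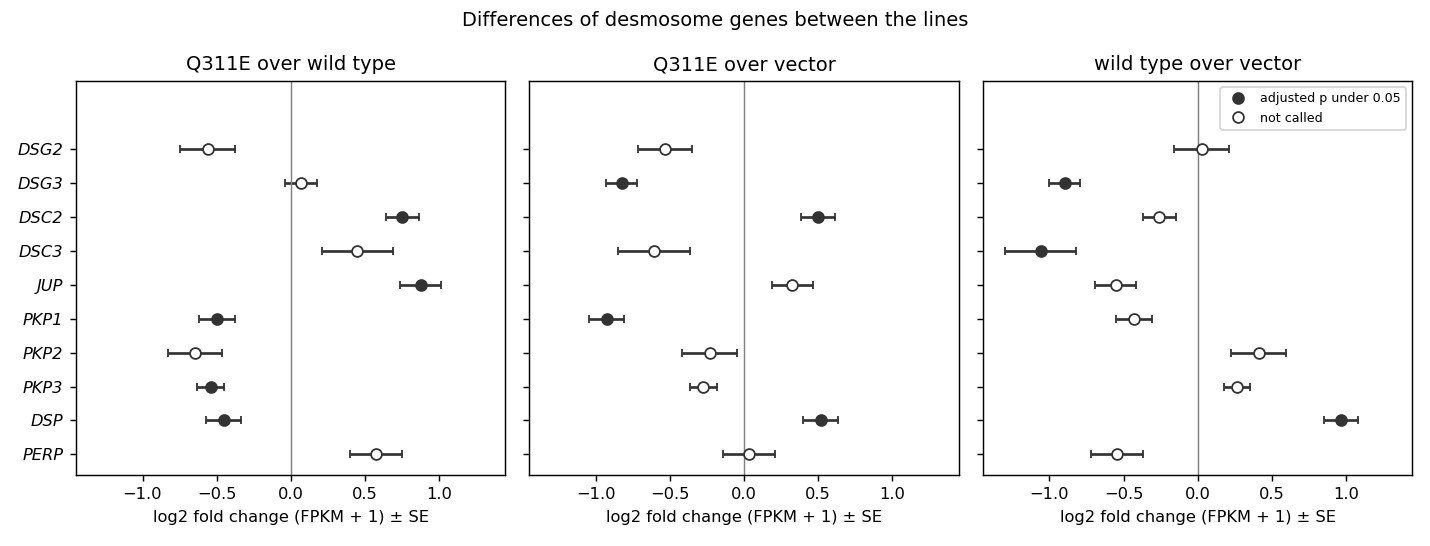
Log2 fold change of FPKM + 1 with its SE (x axes) for the 10 desmosome genes in Q311E over wild type, Q311E over vector and wild type over vector; filled points have an adjusted p under 0.05. DSG3 lies at -0.83 and -0.90 against the vector and at 0.07 between the MB21D2 lines, while JUP lies at 0.88 between them.

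The tested genes with the most similar profiles were found by the root mean square difference of centred log2(FPKM + 1) values over the 6 libraries. For JUP they were STXBP2 (0.034), ULK1 (0.045) and MGST3 (0.047), for PKP3 LRPPRC (0.028), SAFB (0.030) and CRACR2A (0.032), and for DSC2 TDRKH (0.039), RNF19A (0.042) and OAT (0.043). DSG3 was nearest to NEDD8 (0.058) and DSP to DDX31 (0.055). PKP1 was nearest to PARVB (0.053) and DSC3 to TRIM55 (0.072), so DSC3 had the least close match of the called members.

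The 4 tested cadherin genes lie in 1 cluster on chromosome 18 and did not move together. Against the vector, DSG3 fell in both MB21D2 lines, DSC3 fell in the wild-type line, DSC2 rose in the Q311E line, and DSG2 passed no test. Within 2 Mb of the cluster 2 other genes were tested, TRAPPC8 and RNF138, and neither was called in any comparison. DSC1, a further desmocollin in the cluster, did not exceed 0.0113 FPKM in any library.

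Of the other plakins, large proteins that link junctions to filaments, 5 of 6 were tested. PLEC (plectin) had 46.8 and 22.8 FPKM in the Q311E libraries and 75.9 and 77.4 FPKM in the wild-type libraries, against 39.1 and 29.7 FPKM in the vector libraries. Its fall in Q311E over wild type (-1.20 ± 0.33, adjusted p = 0.0484) was the only plakin call in any comparison (27.5% of all tested genes were called in this one), and the Q311E libraries differed widely. For PLEC, Q311E over vector was -0.06 ± 0.33 (adjusted p = 0.92) and wild type over vector 1.15 ± 0.33 (adjusted p = 0.0827), so the wild-type line was the high one. The median of the 5 was -0.45 in Q311E over wild type, 0.08 in Q311E over vector and 0.45 in wild type over vector. PPL (periplakin) had 39.6 and 19.8 FPKM in the Q311E libraries and 41.6 and 43.7 FPKM in the wild-type libraries, against 20.7 and 20.6 FPKM in the vector libraries.

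Of 15 listed keratins, the proteins of the filaments that DSP holds, 11 were tested. In Q311E over wild type 4 rose and 1 fell, in Q311E over vector 1 rose and 2 fell, and in wild type over vector 0 rose and 5 fell. The shares called over all tested genes were 27.5%, 18% and 12.3% in that order of comparisons. KRT14, the basal partner of KRT5, had 0.771 and 0.902 FPKM in the Q311E libraries and 2.08 and 2.35 FPKM in the wild-type libraries, against 762 and 697 FPKM in the vector libraries. It was the 1 keratin that fell in Q311E over wild type (-0.81 ± 0.09, adjusted p = 0.0073 in limma). Both levels in that comparison were near the floor, where the added 1 shapes the change. KRT6A, a stress keratin, had 16.7 and 15.0 FPKM in the Q311E libraries and 7.90 and 9.49 FPKM in the wild-type libraries, against 109 and 104 FPKM in the vector libraries. KRT17 was higher in the Q311E line (118 and 123 FPKM) and lower in the wild-type line (33.3 and 33.4 FPKM) than in the vector line (75.1 and 79.3 FPKM), with adjusted p = 0.00845 and 0.00469 in limma. KRT5 lay between 405 and 579 FPKM in the 6 libraries and passed no test. Keratin genes have near-identical copies, so their single levels are uncertain.

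Adherens junctions share plakoglobin with the desmosome. Of their 18 genes tested, 5 rose and 3 fell in Q311E over wild type (median 0.15), 1 rose and 1 fell in Q311E over vector (median 0.03), and 0 were called in wild type over vector by limma. Over all tested genes 27.5%, 18% and 12.3% were called in the same 3 comparisons. CTNND1 (p120-catenin) had 48.4 and 49.0 FPKM in the Q311E libraries and 37.6 and 37.7 FPKM in the wild-type libraries, against 36.3 and 35.0 FPKM in the vector libraries. It rose in Q311E over wild type (0.36 ± 0.07, adjusted p = 0.02) and over vector (0.44 ± 0.07, adjusted p = 0.0157). ARVCF, a related catenin, rose by 0.49 ± 0.09 in Q311E over wild type (adjusted p = 0.0213). AJUBA, a LIM protein of the junction, fell in Q311E over wild type (-0.36 ± 0.09, adjusted p = 0.0388) and over vector (-0.60 ± 0.09, adjusted p = 0.0153). E-cadherin, CDH1, passed no test, with 0.15 ± 0.07 in Q311E over wild type (adjusted p = 0.188) and 0.29 ± 0.07 in Q311E over vector (adjusted p = 0.0529).

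Among 22 listed regulators of desmosomes and of epithelial identity, 16 were tested. In Q311E over wild type 4 rose and 0 fell, in Q311E over vector 4 rose and 1 fell, and in wild type over vector 1 rose and 2 fell. These 4, 5 and 3 of 16 stand beside 27.5%, 18% and 12.3% of all tested genes. TP63, the master regulator of stratified epithelium, had 19.8 and 32.5 FPKM in the Q311E libraries and 14.8 and 14.5 FPKM in the wild-type libraries, against 30.2 and 29.8 FPKM in the vector libraries. It fell in wild type over vector (-0.99 ± 0.22, adjusted p = 0.0448). Its Q311E libraries differed widely, with Q311E B above both vector libraries. KLF4, a factor of differentiating epithelium, had 18.5 and 17.2 FPKM in the Q311E libraries and 11.1 and 11.3 FPKM in the wild-type libraries, against 7.74 and 6.56 FPKM in the vector libraries. It was called higher in all 3 comparisons. SRC, a kinase that phosphorylates junction proteins, fell in Q311E over vector (-0.51 ± 0.08, adjusted p = 0.0143) and in wild type over vector (-0.38 ± 0.08, adjusted p = 0.0366).

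Proteases known to cut cadherins or desmosomal proteins were measured alongside, and 9 of 10 were tested. In Q311E over wild type 2 rose and 0 fell, in Q311E over vector 4 rose and 0 fell, and in wild type over vector 2 rose and 1 fell. These 2, 4 and 3 of 9 stand beside 27.5%, 18% and 12.3% of all tested genes. KLK5, a kallikrein of the skin surface, had 134 and 104 FPKM in the Q311E libraries and 67.2 and 71.6 FPKM in the wild-type libraries, against 36.9 and 39.6 FPKM in the vector libraries. It was called higher in all 3 comparisons (0.76 ± 0.13, 1.61 ± 0.13 and 0.84 ± 0.13, with adjusted p = 0.0174, 0.00523 and 0.0217 in limma). MMP14, a membrane metalloprotease, averaged 104 FPKM in the Q311E line and 31.6 FPKM in the wild-type line, against 75.9 FPKM in the vector line. It rose in Q311E over wild type (1.68 ± 0.10) and over vector (0.44 ± 0.10) and fell in wild type over vector (-1.24 ± 0.10), with adjusted p = 0.00215, 0.0407 and 0.00715 in limma. ADAM10 and ADAM17, sheddases of cadherins, were called in no comparison.

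**Figure D4:**
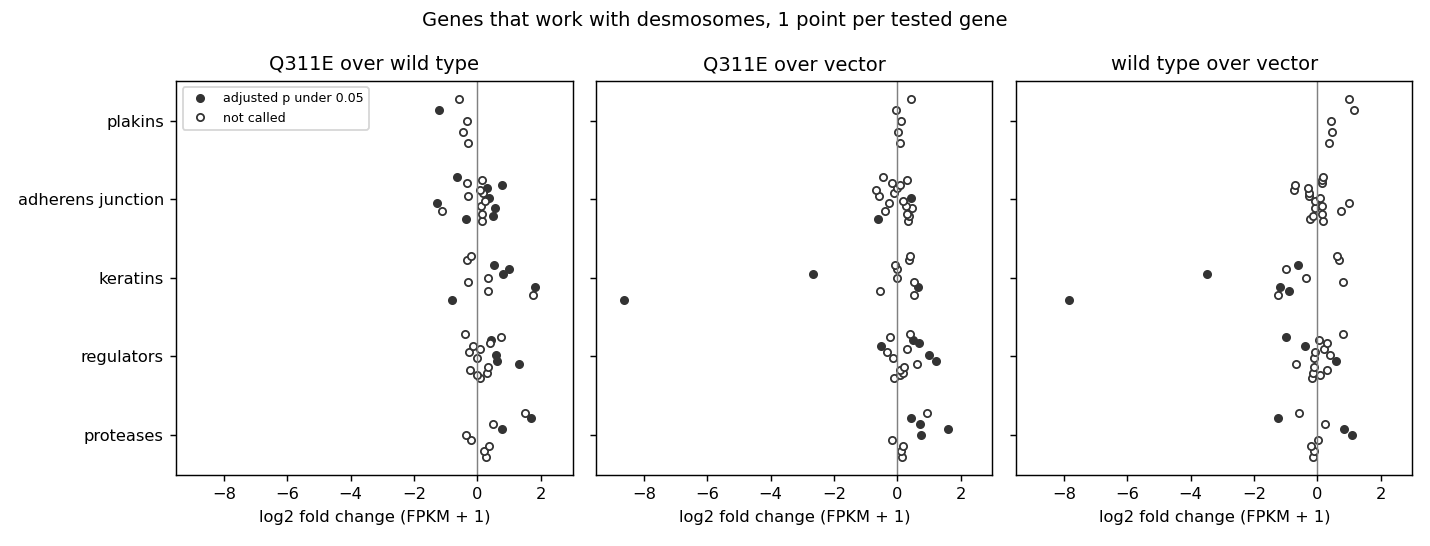
Log2 fold change of FPKM + 1 (x axes) of the tested plakins, adherens junction genes, keratins, regulators and cadherin proteases in the 3 comparisons, 1 point per gene; filled points have an adjusted p under 0.05. The point farthest from 0 against the vector is KRT14 at -8.63 in Q311E over vector and -7.83 in wild type over vector.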

How the data were processed

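The authors deposited FPKM values per human Ensembl gene, as the table's name says. Per the labels' protocols, RNA extraction was by QIAGEN reagents and libraries followed the usual Illumina procedure. Per the submitters' processing notes, the software was CASAVA, and the listed builds are mm8 and mm9, both of mouse, while the gene IDs are human. Which aligner, counter and annotation made the values, and whether strand was used, is not given in the sources used here.

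A table of gene names gave symbols for 29993 of 30178 IDs, and positions were those of GENCODE release 29 (GRCh38). Reads were recovered where a gene's FPKM values gave whole numbers in all 6 libraries within a tolerance of 0.001, at the GENCODE exon length or at a length sought from 0.25 to 4 times it. This held for 30149 genes (99.9%), 22361 of them at the GENCODE length. For DSP, PERP, PKP3, DSC2, DSC3, DSG2 and DSG3 the length was fitted. Read numbers cover counting only.

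The limma package (3.58.1, under R 4.3.3) was fitted to log2(FPKM + 1) for the 3 lines jointly. Its variance prior followed expression level, and 3 residual degrees of freedom were left. The 11481 genes with a mean of at least 1 FPKM entered. Calls needed an adjusted p (Benjamini-Hochberg, two-sided test, over all of them) under 0.05. Every adjusted p comes from this fit unless another setting is named beside it. The fit was tested on simulated data in which each gene had the same spread in all libraries. That test cannot show how the fit performs where the Q311E pair varies more than the other pairs. Errors of fold changes are SEs. Numbers outside R came from numpy 2.4.6 and pandas 2.3.3, and figures from matplotlib 3.10.9.

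The members and lists were chosen with earlier results of these data known. All 10 members are named. Of the other lists, called plakins and up to 4 called genes a list and comparison were eligible, beside genes needed for cell identity, and CDH1, PPL, KRT5, PKP4, TRAPPC8, RNF138, ADAM10 and ADAM17 were added after their values were seen. Up to 3 most similar genes were named for each called member. Counts are set beside those over all tested genes, with no set test. Alternatives were another pseudocount (0.1 or 0.5), another filter, TPM, median and quantile scaling, limma-voom with TMM factors on recovered reads, sample weights, only the groups compared, the library letter as a block, and each library left out. Removal of each library's trend with exon length was added after seeing the data.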

Additional observations from a re-analysis of the deposited data

Results flagged for a closer look

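The differences of the Q311E and wild-type lines from the vector line were unequal for 5 of 10 desmosome genes by the direct limma comparison of the lines (Q311E minus wild type, log2 scale), against 27.5% of all tested genes. Form, level of MB21D2 and line cannot be told apart here. The difference was 0.88 for JUP, which had 0.32 in the Q311E line and -0.55 in the wild-type line. It was 0.75 for DSC2 (0.50 in the Q311E line and -0.26 in the wild-type line). It was -0.54 for PKP3 (-0.28 in the Q311E line and 0.27 in the wild-type line), -0.50 for PKP1 (-0.93 and -0.43 in the same order of lines) and -0.45 for DSP (0.52 and 0.97). The adjusted p of the difference lay between 0.0126 and 0.0406. The groups of 2 libraries were too small to look for single outlying libraries.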

How the results depend on the processing

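Of 528 values of single desmosome genes under the alternatives, 401 kept direction and side of the threshold, 73 lost the call, 46 gained it and 8 changed sign. The sign changes were as follows. DSG3 in Q311E over wild type had -0.0144 with median scaling, -0.143 with quantile normalization and -0.0207 without Q311E B. PERP in Q311E over vector had -0.00614 with median scaling and -0.233 without Q311E B. PKP2 in Q311E over vector had 0.0367 without Q311E B. DSG2 in wild type over vector had -7e-04 without wild type A and -0.0842 without vector B. In the same comparisons the sign was kept without Q311E A for DSG3 (0.160), PERP (0.295) and PKP2 (-0.504). It was kept without vector A for DSG2 (0.136). No gene changed sign in a comparison where it was called as reported. With the replicate block (the letter A or B as a block) Q311E over vector had 2 member calls in place of 4, with DSP at adjusted p = 0.051 and DSC2 at 0.0633. In Q311E over wild type the block left 5 calls but other genes: DSP (0.0505) and PKP1 (0.0538) were lost, and PKP2 (0.0323) and DSG2 (0.0383) gained. In wild type over vector DSC3 was lost (0.0521), so DSP was called in 1 comparison under the block. The A minus B differences correlated across genes at 0.387 between Q311E and vector and near 0 between the other pairs. Their rank correlation with exon length was 0.231 in Q311E and 0.278 in vector, against 0.023 in wild type. The difference between A and B was thus partly shared by the Q311E and vector lines, but not by the wild-type line. Its cause was not tested. Wild type over vector also followed exon length, at 0.226.

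Member calls in Q311E over wild type (5) were 3 without a filter on low values, 2 with only the 2 groups, and 0 to 9 with 1 library left out. In Q311E over vector (4) they were 2 without a filter, with TPM scaling or with sample weights, 1 when a mean of 5 FPKM was required (6 members tested), 0 with only the 2 groups, and 0 to 9 with 1 library left out. In wild type over vector (3) they were 1 when that mean was required, 9 with sample weights, 8 with only the 2 groups, and 0 to 8 with 1 library left out. Calls over all genes in Q311E over wild type (3162) were 1608 without a filter, 2002 with sample weights, 973 with only the 2 groups, and 0 to 6961 with 1 library left out, where limma still gave 2878 and 2794 unadjusted p under 0.05 without wild type A and B. In Q311E over vector (2061) they were 1210, 871, 262 and 3 to 5683 in the same order. In wild type over vector (1412) they were 393, 5509, 5273 and 7 to 5262. The causes were not tested. PKP1, with 52 to 289 reads, had the fewest reads of the members in the Q311E and vector libraries. In the wild-type libraries DSC3 had the fewest (145 and 119, against 148 and 135 for PKP1).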
